A study of Mus musculus with 24 samples.

Results

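The interferon response genes are genes that cells switch on when interferon binds its receptors, together with the transcription factors that switch them on. They were followed here in LSK-SLAM cells of young and old mice. The list of 43 gene symbols was chosen with earlier results of these data known, though no measured value enters the rule. A row was present for 40 of them among the 18762 genes with a row, and 39 of these 40 reached a mean of 10 over all mice and entered the tests with 12354 genes in all. *Irf9*, *Rsad2* and *Cmpk2* were not analysed here. *Isg15*, with a mean under 10, is given as values only.

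LSK-SLAM cells are the bone marrow fraction enriched for haematopoietic stem cells. They were sorted from C57BL/6 wild-type mice without treatment named in the labels, 5 young mice of 4 to 5 months and 7 old mice of 20 to 22 months. These ages are those given with the samples, while a supplementary legend of the study gives higher ages for both groups. Up to 15000 cells per mouse were sorted, and 300 pg of RNA depleted of ribosomal RNA entered the TotalScript library kit. Labels exist for 24 samples, so that every one of the 12 mice has 2, but the deposited table holds a single column of normalized read counts for a mouse, which is the unit of all tests here. The label of every mouse also ends in A or B, 2 young and 4 old mice in A and 3 young and 3 old mice in B, with no statement in the sources used here of what the letter means.

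Type I interferons bind a receptor on almost every cell, whose JAK kinases phosphorylate STAT proteins such as STAT2. A complex that holds STAT2 and IRF9 binds the interferon-stimulated response element (ISRE) in the promoters of its targets. Interferon-γ instead acts through the gamma-activated sequence (GAS), the usual route to IRF1 and to the large GTPases. In haematopoietic stem cells, interferon is known to drive resting cells into cycle, and part of this gene set is held at a measurable level without infection.

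The 250 bases before each RefSeq start (GRCm38.p6) were searched for the ISRE core (GAAA, any 2 bases, GAAA) and the GAS core (TTC, any 3 bases, GAA) on both strands, since factors activated by interferon are known to bind such letters. The set of RefSeq promoters used here covered 32 of the 40 members. The ISRE core was present before 14 of these 32 genes (43.8%), against 936 of 27025 genes (3.46%) among all promoters, and the GAS core before 9 members (28.1%) against 8.13% of all genes. A match is a description of these letters and not of a bound site. *Rtp4* was among the 8 members without an entry in the set used here. Stretches of 60 bases around the match are shown for members of different roles, with the ISRE core in capitals on whichever strand it lies:
Stat2: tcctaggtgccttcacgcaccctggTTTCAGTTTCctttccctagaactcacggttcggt
Isg15: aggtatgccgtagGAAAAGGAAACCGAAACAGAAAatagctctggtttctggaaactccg
Ifit1: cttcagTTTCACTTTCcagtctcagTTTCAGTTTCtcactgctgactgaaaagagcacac
Oas1a: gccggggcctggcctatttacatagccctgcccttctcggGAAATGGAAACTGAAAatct
Bst2: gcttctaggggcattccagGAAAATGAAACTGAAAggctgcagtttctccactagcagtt
Gbp7: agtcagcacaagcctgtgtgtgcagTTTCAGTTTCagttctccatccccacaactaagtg
Igtp: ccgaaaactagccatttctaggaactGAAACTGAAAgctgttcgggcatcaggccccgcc
Irgm2: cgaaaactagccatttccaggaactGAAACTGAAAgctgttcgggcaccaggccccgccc
The stretch of *Isg15* lies at chr4:156200850-156200909 on the minus strand, that of *Stat2* at chr10:128270251-128270310 and that of *Ifit1* at chr19:34640779-34640838, both on the plus strand. *Igtp* (chr11:58199496-58199555) and *Irgm2* (chr11:58214888-58214947), neighbours on chromosome 11, carry nearly the same stretch.

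Recovered reads on genes were between 2.05 and 5.12 M in young mice, where M stands for 1000000, and between 0.861 and 5.00 M in old ones. The A mice were the shallower ones (median 2.12 M against 4.53 M in B), and old mice 7 and 5 were the shallowest, with 0.861 and 1.13 M. At these depths 3 reads correspond to a normalized read count of 0.583 to 3.69. The 8 markers fixed for LSK-SLAM cells, among them *Kit*, *Slamf1* and *Mecom*, were detected in every mouse. *Cd48*, which the sort leaves out, did not exceed 11.8. It belongs to the 3 markers fixed for multipotent progenitors, which summed to 167 to 293 in young and 98.0 to 139 in old mice. The 2 tested were lower in old mice, with log2 fold changes of -1.01 and -0.99 when the letter was a covariate. Both had an unadjusted p under 0.05 (limma, 5.2% of all genes), and 1 passed after adjustment (0.299%). Their part in the members' values was not tested. The labels name separate mice, so that the spread between samples includes that between animals.

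Levels of the members spread widely. Per kb of exon in young mice, *Ifitm3*, a membrane protein that blocks viral entry, stood highest with a normalized read count of 450 ± 150 (SD, n = 5), followed by *Lgals3bp*, a secreted glycoprotein, with 119 ± 20.8 and *Gbp2*, a guanylate-binding GTPase, with 67.0 ± 11.2. *Isg15*, the ubiquitin-like protein that tags other proteins after interferon, stood far lower at 6.11 ± 3.07 per kb, from 3 to 27 reads per mouse. *Ifit3*, *Zbp1*, *Oasl1* and *Oas2* were at the same low end, with means between 5.34 and 5.69 per kb. Length was the summed exon length of each gene.

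**Figure D1:**
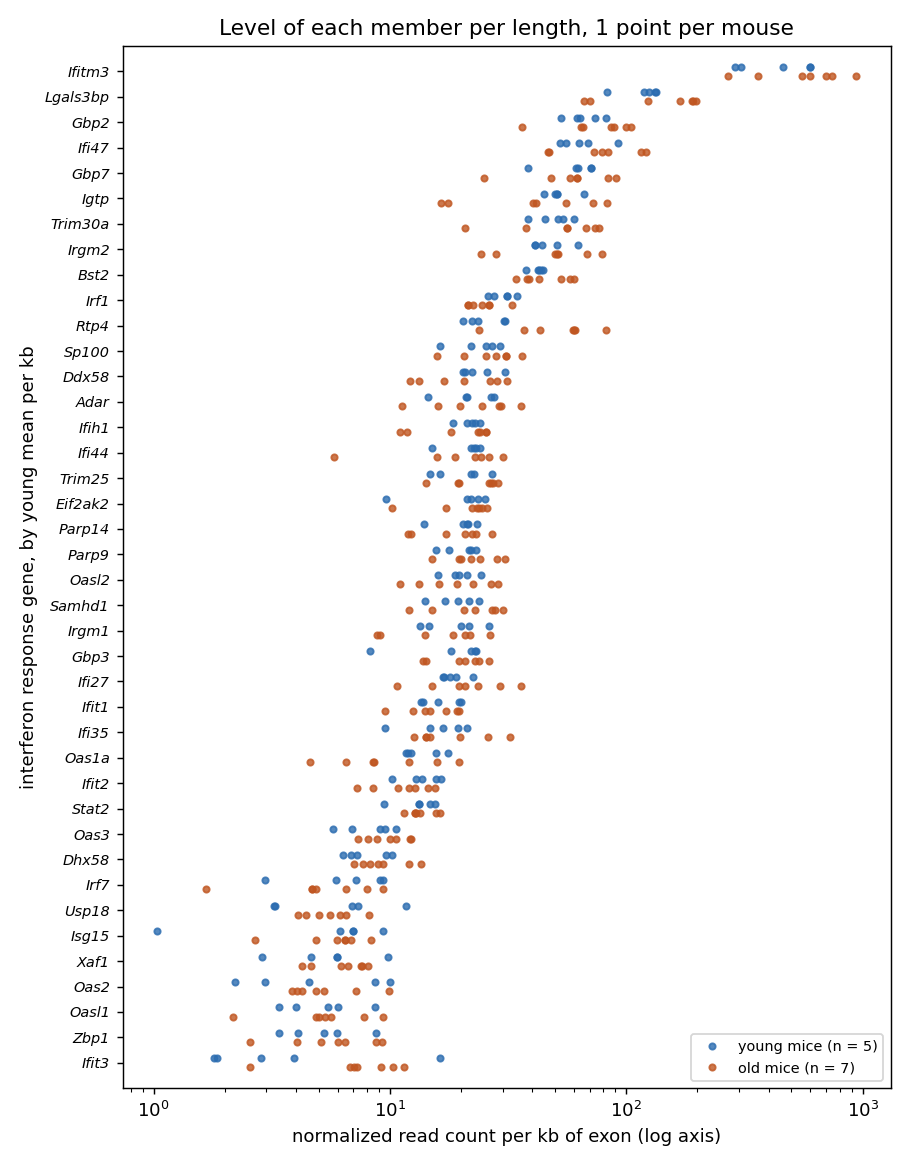
Normalized read count per kb of exon (log axis) for each of the 40 members with a row, 1 point per mouse, young mice in blue (n = 5) and old mice in orange (n = 7). *Ifitm3* stands highest, and the young and old points of nearly all genes lie over each other.

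The first comparison asked whether members differed between old and young mice. None of the 39 members passed in the comparison of age alone (limma, adjusted p under 0.05), in which 13 of 12354 genes (0.105%) did. *Rtp4* was the single member with an unadjusted p under 0.05, against 488 genes (3.95%) in all. With the label letter as a covariate *Rtp4* passed, alone among the members, while 37 genes (0.299%) passed in all and 643 (5.2%) had an unadjusted p under 0.05. Separation of the ages without any overlap was seen for none of the members, against 57 genes (0.461%).

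A difference of 1 log2 unit in either direction lay outside the interval of most members. With the letter, the 95% interval of 36 of 39 members (92.3%) lay within 1 log2 unit of 0, against 69.8% of all genes, and without the letter that of 34 (87.2%), against 58.3%. The exceptions with the letter were *Rtp4*, *Ifit3* and *Irf7*. The median log2 fold change of the members, old against young, was 0.07 for age alone and 0.14 with the letter, beside medians of -0.02 and -0.05 over all genes. In either fit 24 members (61.5%) were above 0 and 15 below. Of all genes, 47.7% were above 0 for age alone and 42.7% with the letter.

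**Figure D2:**
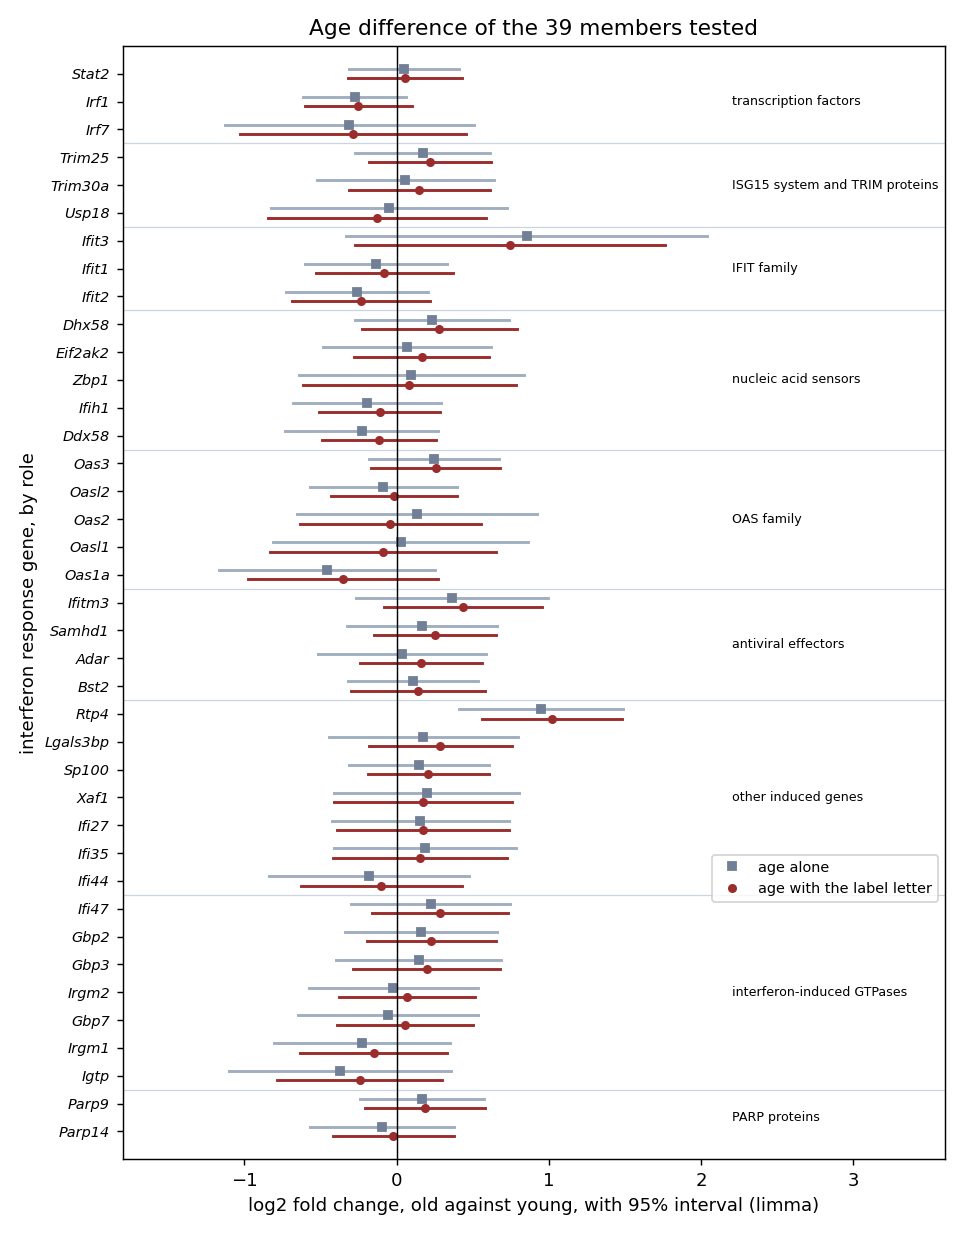
Log2 fold change of each of the 39 members tested, old against young, with its 95% interval from limma, for age alone (grey squares) and with the label letter (red circles), in order of role. The interval of *Rtp4* alone lies wholly above 0, from 0.56 to 1.48 with the letter.

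*Rtp4*, a chaperone that carries receptors to the cell surface and is strongly induced by interferon, was the member that rose. Its gene spans chr16:23520291-23614222 on the plus strand (GRCm38). The normalized read counts of the young mice were 43.2, 50.5, 65.3, 47.5 and 64.9. Those of the old mice were 128, 127, 92.1, 176, 50.5, 129 and 78.7. All old mice but old mouse 5 were above the highest young mouse, and old mouse 5 fell among the young. The mean was 54.3 ± 10.2 in young mice (SD, n = 5) and 111 ± 41.0 in old mice (SD, n = 7), which is 2.05 times as high.

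The log2 fold change of *Rtp4* was 1.02 ± 0.22 (SE) with the letter (limma, adjusted p = 0.0369) and 0.95 ± 0.26 for age alone (limma, adjusted p = 0.353). A two-sided exact permutation test of the difference in means gave p = 0.0139 over all 792 splits and p = 0.0167 over the 300 splits that keep the letters apart. Among the 40 members with a row, *Irf1* was the single other one with an exact p under 0.05, in both of these tests. These exact p-values were not adjusted for the 40 members, and the share over all genes was not counted. *Rtp4* was named for its p in these same values, so that its exact p is no separate support. Within letter A the log2 fold change was 0.93 ± 0.38 and within letter B 1.10 ± 0.23. It passed in B alone (limma, adjusted p = 0.00806), among 100 genes that passed there in all. Each old mouse was above each young mouse of its own letter, by a narrow margin in A, where old mouse 5 stood at 50.5133 and young mouse 2 at 50.4775. The share of all genes with this pattern was not counted.

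The call for *Rtp4* turned on single mice. With the letter it was lost when young mouse 1, 2, 3 or 4 or old mouse 1, 2, 4 or 6 was left out, with log2 fold changes between 0.90 and 1.08 and adjusted p up to 0.194. Old mice 5 and 7 held the 2 lowest old values of *Rtp4*, 50.5 and 78.7, so that leaving them out raises the old mean. Leaving both out was also chosen after the data were seen. Without them the log2 fold change with the letter was 1.24 (limma, adjusted p = 7.34e-05), when 118 genes passed in all. For age alone *Rtp4* then passed too (limma, adjusted p = 0.00361), among 49 genes in all. With the letter, the adjusted p was 0.0172 in edgeR and 0.00184 in DESeq2 on recovered reads. *Rtp4* overlaps *Masp1* on the other strand and *Gm45338* on its own, with which it shares 11.6% of its 50-base words. Neither was analysed here, and strand use in the counting is not given in the sources used here.

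None of the 3 transcription factors passed the test. *Stat2*, which acts under type I interferon, had normalized read counts of 92.1, 78.4, 87.7, 56.1 and 78.7 in young mice and from 67.6 to 96.4 (median 76.4) in old mice. The groups overlapped over nearly their whole range, with a log2 fold change of 0.05 (95% interval -0.32 to 0.43 with the letter). *Irf1*, the activator most tied to interferon-γ, had 124, 104, 110, 137 and 124 in young mice and from 84.9 to 130 (median 97.2) in old mice. Its mean was 120 ± 13.3 in young and 99.3 ± 16.0 in old mice, and the log2 fold change with the letter was -0.25 ± 0.17 (limma, adjusted p = 0.996). The two-sided exact permutation test of its means gave p = 0.048 over all splits and p = 0.0433 with the letters kept apart, neither adjusted for the 40 members examined. *Irf7*, which amplifies type I interferon production, had 27.1, 34.1, 22.4, 11.2 and 35.3 in young mice and from 6.31 to 35.3 (median 18.4) in old mice. Its log2 fold change was -0.29 (95% interval -1.03 to 0.45), from as few as 8 reads in a mouse.

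The IFIT proteins bind viral RNA that lacks the marks of a host message. None of the 3 passed. *Ifit3* had the second largest log2 fold change of all members, 0.75 ± 0.50 with the letter (95% interval -0.27 to 1.76). It was measured at 4.98, 28.4, 6.87, 3.14 and 3.23 in young mice and from 4.47 to 20.0 (median 12.7) in old mice. Young mouse 2 was above every old mouse, young mice 1 and 3 were below all old mice but old mouse 4, and young mice 4 and 5 were below every old mouse. Its values are uncertain, since *Ifit3* shares 51.2% of its 50-base words with its copy *Ifit3b* and rests on 10 to 79 reads per mouse. *Ifit2* had 50.4, 61.5, 40.0, 64.4 and 53.5 in young mice and from 28.5 to 60.9 (median 47.4) in old mice, with a log2 fold change of -0.23 ± 0.22. *Ifit1*, with 44.1 ± 8.24 in young and 40.6 ± 9.75 in old mice, lay closer to no difference, at -0.08.

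The OAS enzymes make a small messenger from double-stranded RNA that switches on RNase L. None of the 5 passed for age, and their log2 fold changes with the letter ran from -0.35 to 0.26. *Oas1a* was the lowest of all members, with 22.4, 22.1, 29.4, 33.2 and 23.2 in young mice and from 8.68 to 36.9 (median 16.2) in old mice. The highest value and the 4 lowest were all from old mice (log2 fold change -0.35 ± 0.30 with the letter). *Oas1a* shares 57.6% of its 50-base words with *Oas1g*, so that reads could be split between the copies. *Oas3*, at the other end, had 59.3 ± 14.2 in young and 70.0 ± 13.8 in old mice.

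None of the 5 sensors of foreign nucleic acid passed for age. *Ddx58*, which encodes the RNA sensor RIG-I, had 146, 144, 181, 216 and 157 in young mice and from 86.1 to 221 (median 145) in old mice, with a log2 fold change of -0.12 ± 0.18. *Ifih1*, the sensor MDA5 of long double-stranded RNA, had 178 ± 17.6 in young and 163 ± 51.9 in old mice. *Dhx58*, which tunes both sensors, had 0.28 ± 0.25. *Eif2ak2*, the kinase PKR that halts translation, had 0.16 ± 0.22, and *Zbp1*, a sensor that can start necroptosis, 0.08 ± 0.34.

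None of the 4 antiviral effectors passed for age. *Ifitm3*, the most abundant of them per kb, was measured at 405, 208, 195, 314 and 405 in young mice and from 183 to 633 (median 408) in old mice. Of the old mice, 4 were above every young mouse and old mouse 7 was below every young mouse. The log2 fold change was 0.43 ± 0.25 with the letter (95% interval -0.08 to 0.95, limma, adjusted p = 0.996), 0.07 within letter A and 0.75 within letter B. *Samhd1*, which empties the nucleotide pool that retroviruses need, had 0.25 ± 0.20. *Adar*, which edits adenosines in double-stranded RNA, had 172, 118, 223, 217 and 170 in young mice and from 91.6 to 291 (median 199) in old mice, with 0.16 ± 0.19. *Bst2*, a tether of budding virus, had 38.1 ± 2.30 in young and 41.9 ± 9.42 in old mice.

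Of the ISG15 system and the TRIM ubiquitin ligases, none of the 3 tested members passed. *Isg15* itself had 4.67, 5.29, 5.30, 0.785 and 7.05 in young mice and from 2.02 to 6.31 (median 4.86) in old mice, and the groups overlapped. *Usp18*, which removes ISG15 and dampens the receptor, had a log2 fold change of -0.13 ± 0.35 with the letter, *Trim25* 0.22 ± 0.20 and *Trim30a* 0.15 ± 0.23. Within letter A, *Trim25* and *Trim30a* were at -0.03 and -0.28. Within letter B they were at 0.44 and 0.53 (limma, unadjusted p = 0.0218 and 0.00486), values picked after they were seen. Neither passed in B, where 995 genes had an unadjusted p under 0.05. With the letter as a covariate, the ADP-ribosylation genes *Parp9* and *Parp14* had 0.19 ± 0.19 and -0.02 ± 0.19. Of the other induced genes, all but *Rtp4* failed to pass, and *Ifi44*, *Ifi35*, *Ifi27*, *Xaf1*, *Sp100* and *Lgals3bp* lay between -0.10 and 0.29. *Lgals3bp* was measured at 339, 237, 382, 355 and 377 in young mice and from 189 to 559 (median 479) in old mice, where 4 old mice were above and 2 below every young mouse.

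**Figure D3:**
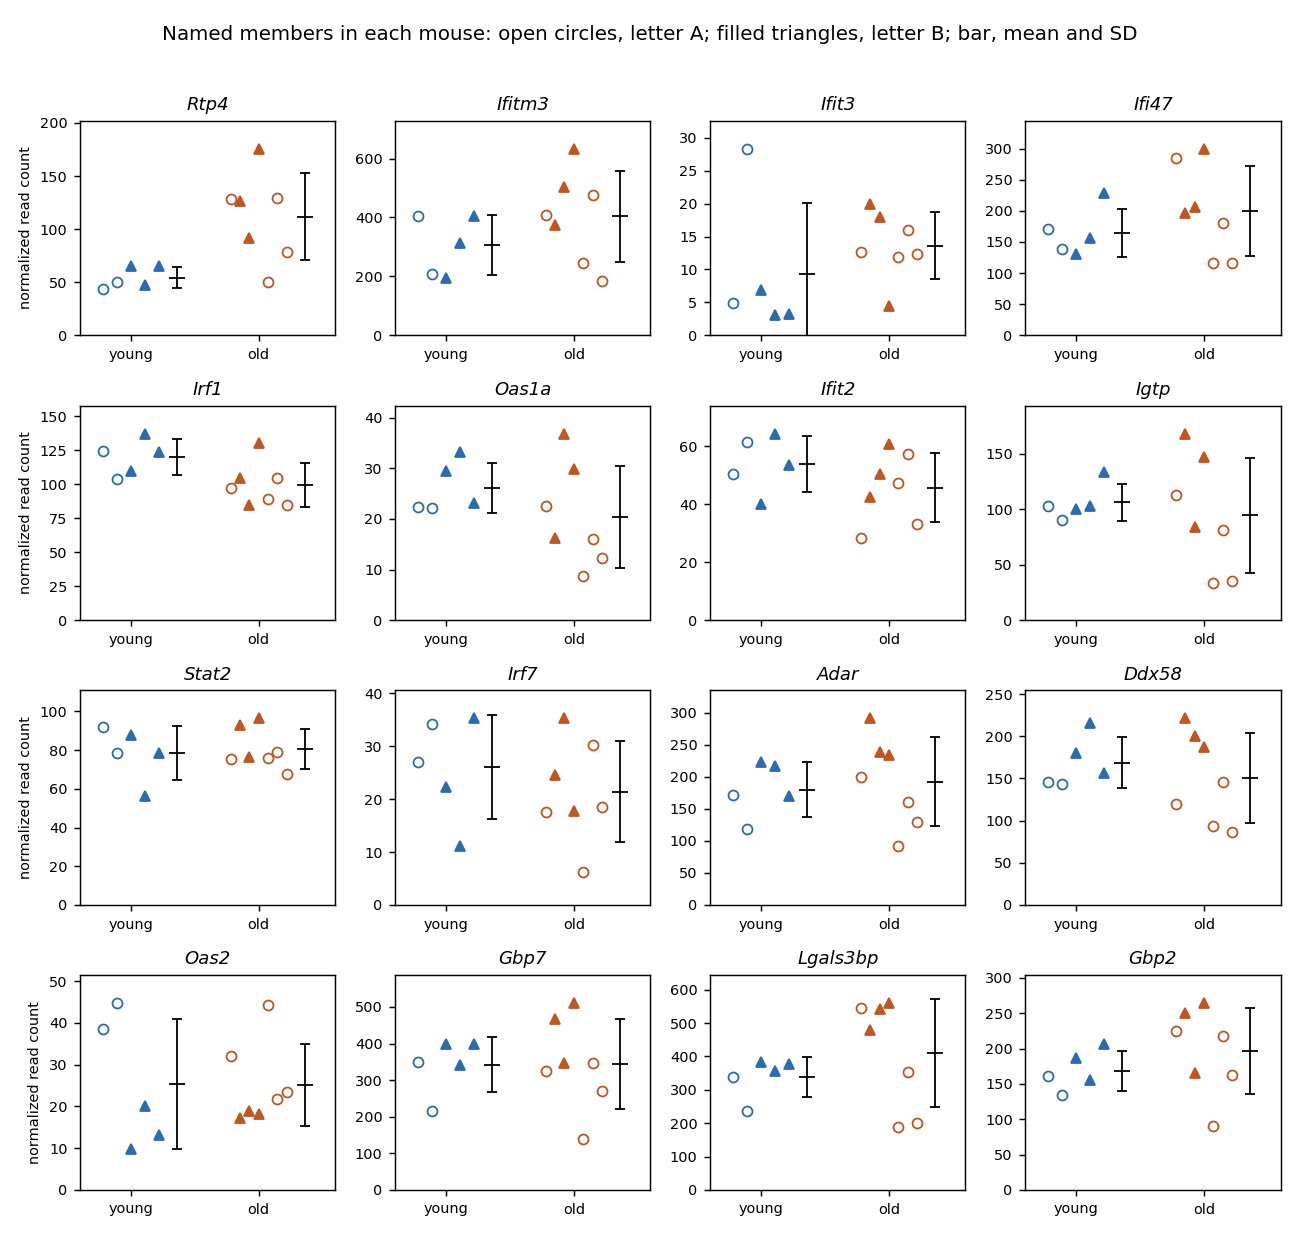
Normalized read count of the 16 named members in each mouse, young in blue and old in orange, with open circles for letter A, filled triangles for letter B and bars for mean ± SD (n = 5 young, n = 7 old). For *Rtp4*, 6 of the 7 old mice are above every young mouse, and in the other panels the groups overlap more widely.

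The interferon-induced GTPases, which attack the membranes around intracellular microbes and are known chiefly as interferon-γ targets, did not pass for age. *Ifi47* had 170, 138, 130, 156 and 229 in young mice and from 116 to 300 (median 196) in old mice (log2 fold change 0.28 ± 0.22 with the letter). *Igtp* had 103, 90.4, 101, 103 and 134 in young mice and from 33.1 to 168 (median 83.9) in old mice, so that the old mice held both ends (log2 fold change -0.24 ± 0.27). *Gbp2* had 161, 134, 186, 156 and 206 in young mice and from 90.8 to 264 (median 218) in old mice, with 0.23 ± 0.21. *Gbp7* had 349, 216, 400, 343 and 400 in young mice and from 140 to 510 (median 347) in old mice, with 0.06 ± 0.22. *Irgm1*, *Irgm2* and *Gbp3* lay between -0.15 and 0.20.

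These GTPases moved together from mouse to mouse. All 7 were among their 3 highest mice in old mouse 4 and 6 of 7 in old mouse 2, while all 7 were among their 2 lowest in old mouse 5. The shares of all genes at these unequal cut-offs were not counted. Of all genes, 21.2% had their single lowest value in old mouse 5. Their single highest was in old mouse 4 for 7.92% and in old mouse 2 for 5.95%. The summed normalized read count of the 7 GTPases ran from 566 in old mouse 5 and 803 in old mouse 7 to 1587 in old mouse 2 and 1705 in old mouse 4. It lay between 835 and 1423 in the young mice, inside the old range. After the age and letter means were taken out, the mean correlation over their 21 pairs was 0.73 across 12 mice, from 0.32 for *Ifi47* with *Gbp3* to 0.96 for *Igtp* with *Irgm2*. Without old mice 5 and 7 the mean was 0.66. *Igtp* and *Irgm2* overlap on the same strand, with 11.8% of the 50-base words of *Igtp* shared with *Irgm2*, so that this pair is not independent.

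Over all 741 pairs of members the mean correlation was 0.32, against 0.02 over all pairs of the genes tested, and it was 0.08 without old mice 5 and 7. By role it was 0.53 for the antiviral effectors, 0.36 for the ISG15 and TRIM genes, 0.32 for the other induced genes, 0.27 for the sensors, 0.14 for the transcription factors, 0.08 for the OAS genes and 0.04 for the IFIT genes. Without old mice 5 and 7 all of these were at most 0.24, that of the antiviral effectors 0.03. The points of each correlation share their library and its depth.

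The members spread more widely among old mice than among young ones. The median deviation of the 39 members from their own mean over the 12 mice, on the log2 scale, ran from -0.21 to 0.12 in young mice (SD 0.13, n = 5) and from -0.62 to 0.41 in old mice (SD 0.36, n = 7). Old mouse 4 held the highest value of 15 members (38.5%, against 7.92% of all genes). Old mouse 5 held the lowest value of 18 (46.2%, against 21.2%) and old mouse 7 that of 7 (17.9%, against 10.7%). This difference in spread was not tested.

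Other measures moved with these deviations. The 3 mice with a member median below 0, old mouse 5 (-0.62), old mouse 7 (-0.28) and young mouse 2 (-0.21), also had the 3 smallest numbers of recovered reads, 1.13, 0.861 and 2.05 M. They had the 3 lowest sums of the 8 LSK-SLAM markers as well, 1474, 2142 and 2895, against 3757 to 5249 in the other 9 mice. The 7 neutrophil markers summed to 996 in old mouse 5, 766 in old mouse 7 and 183 in young mouse 2. Their highest sum was 4043, in old mouse 6, whose member median was 0.03, and the sums lay between 183 and 822 in young mice and between 130 and 4043 in old ones. The 8 T and NK cell markers had their 3 highest sums in the same 3 mice, 181, 152 and 115, within ranges of 39.6 to 115 in young and 73.5 to 181 in old mice. The 5 B cell markers were highest in old mice 5 and 7, at 121 and 119, within 49.4 to 96.6 in young and 48.0 to 121 in old mice. Old mouse 5 also had 263 for the 7 macrophage and monocyte markers with a row and 360 for the 5 erythroid ones, each second to old mouse 6 with 270 and 564. Young mice lay between 51.4 and 103 for the former and between 99.7 and 192 for the latter. None of these markers was at 0 throughout. The part of depth and of other cells in the members' values was not tested. In bulk RNA, fewer cells of a type and less RNA per cell cannot be told apart.

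**Figure D4:**
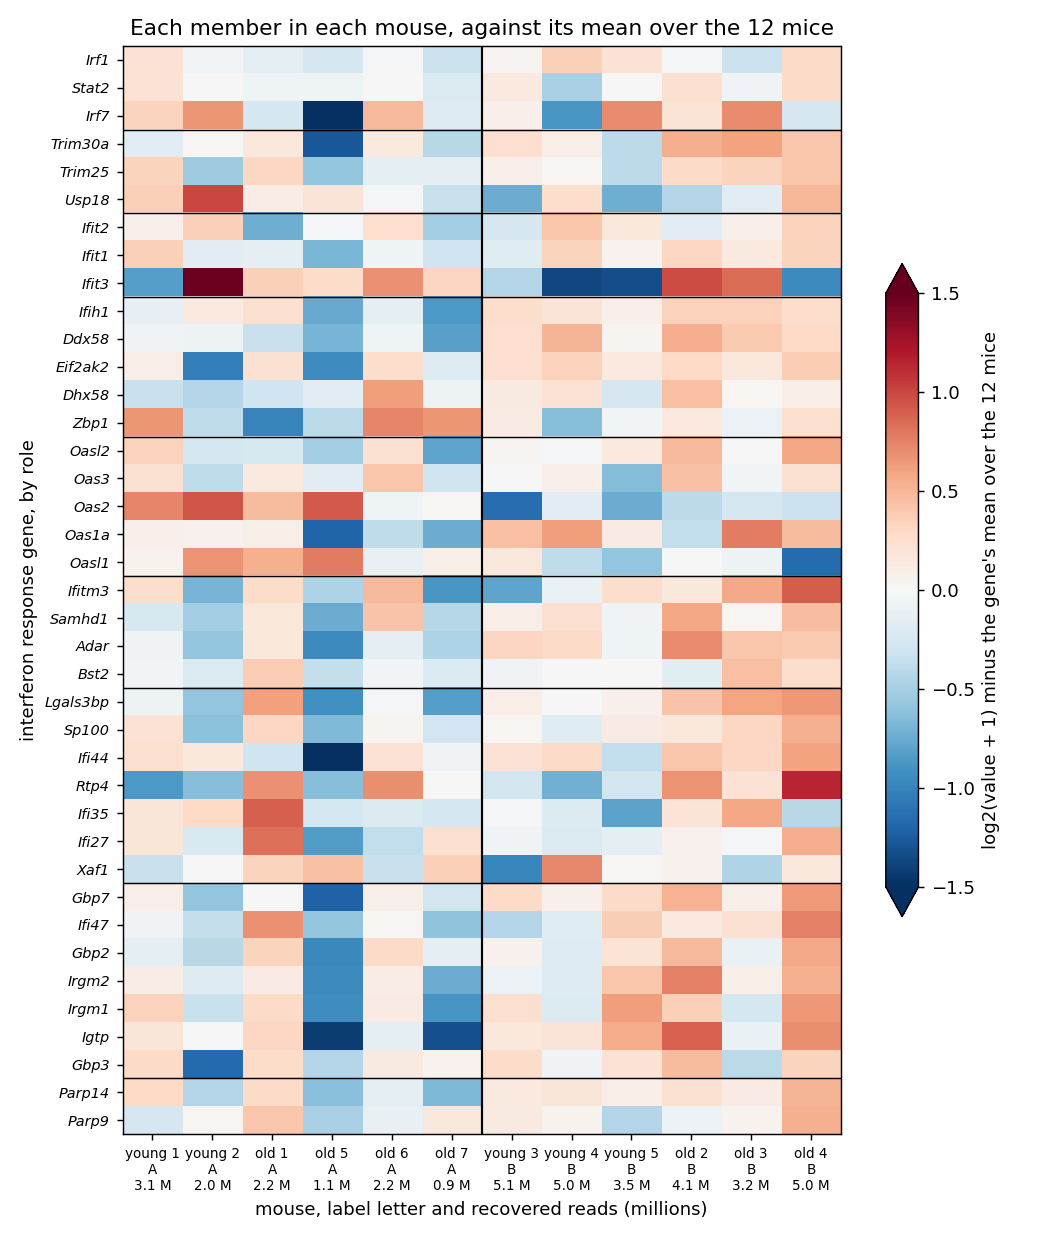
Each of the 39 members in each mouse as the difference of log2(value + 1) from its mean over the 12 mice, red above and blue below, with mice set out by letter and age and their recovered reads in M. Old mouse 5 is blue for most members, with a median of -0.62, and old mouse 4 is red, with a median of 0.41.

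The second comparison set the B mice against the A mice with age as a covariate. It showed more differences among the members than age did, though fewer than among all genes. *Adar*, *Ddx58*, *Gbp7*, *Lgals3bp*, *Igtp*, *Eif2ak2*, *Samhd1* and *Ifih1* were higher in B and *Oas2* was lower. This is 9 of 39 members (23.1%), against 4462 of 12354 genes (36.1%). The 8 higher in B are 20.5% of the members, against 1301 genes (10.5%), and *Oas2* is 2.56% of them, against 3161 genes (25.6%) lower in B. These shares are not matched for level. Of all genes, 45.5% were above 0 at a minimum mean of 10 and 69.6% at 30. Of the members, 82.1% and 96.7% were. Cell markers moved with the letter too. All 8 LSK-SLAM markers were above 0, with a median log2 difference of 0.57 and 3 of 8 called higher in B. The medians were -1.45 for the neutrophil markers (3 of 7 tested called lower in B), -1.36 for B cell (2 of 3), -1.21 for macrophage and monocyte (3 of 4), -0.999 for erythroid (3 of 5), -1.55 for plasmacytoid dendritic cell (2 of 3, *Bst2* among those tested) and -0.50 for T and NK cell markers (1 of 4). The median was 0.33 for the 3 megakaryocyte markers tested, all of them above 0 and none called. It was -0.26 for the 2 multipotent progenitor markers tested, with 1 above 0 and 1 called lower in B. The part of all these markers in the members' difference was not tested.

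*Adar* had the smallest adjusted p, with a log2 difference of 0.71 ± 0.19 (limma, adjusted p = 0.0067), from 91.6 to 199 in A and from 170 to 291 in B. *Ddx58* ran from 86.1 to 146 in A and from 157 to 221 in B (log2 difference 0.66 ± 0.18, limma, adjusted p = 0.007). *Oas2* ran from 21.7 to 44.7 in A and from 9.81 to 20.2 in B (log2 difference -1.02 ± 0.29, limma, adjusted p = 0.00869). The share of all genes whose ranges lie apart between the letters was not counted. Mouse by mouse, *Oas2* had 38.6, 44.7, 9.81, 20.2 and 13.2 in young mice and from 17.2 to 44.2 (median 21.7) in old mice, where the 2 young A mice stood apart from the 3 young B mice. *Gbp7*, *Lgals3bp* and *Igtp* differed by 0.65 ± 0.21, 0.66 ± 0.23 and 0.75 ± 0.26. *Samhd1* and *Ifih1* were near the threshold (limma, adjusted p = 0.0498 and 0.04996). A share of 14.4% of the 50-base words of *Adar* also lies in *Chrnb2*, which overlaps it on the other strand.

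The median difference of the members was 0.34, which is 0.43 above the median of all genes (-0.09). Rescaling by median ratios moved the median of all genes to 0.03, a shift of 0.12, and that of the members to 0.47, still 0.43 above it. At a minimum mean of 30 the members' median was 0.41 and that of all genes 0.21, and without old mice 5 and 7 they were 0.15 and -0.11, so that the gap was narrower in both. Rescaling by median ratios turned the calls over all genes from 1301 higher and 3161 lower in B into 2267 and 2888, and those of the members from 8 and 1 into 17 and 1. By TMM the members' calls were 14 and 1. Without old mice 5 and 7 together, *Adar*, *Ddx58* and *Oas2* were the 3 members called. With single mice left out, the members called fell to 5 without young mouse 2 or old mouse 5, to 4 without old mouse 2 or old mouse 7, and to 3 without old mouse 4. Depth and letter cannot be told apart, because each A mouse had fewer reads than each B mouse.

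The last comparison asked whether the age difference of the members was the same in both letters. No member passed for the interaction, in which 2 genes (0.0162%) did, and *Ifi44* was the single member with an unadjusted p under 0.05 (limma, p = 0.0377), against 424 genes (3.43%). Its log2 fold change of age was -0.67 within A (limma, unadjusted p = 0.122) and 0.40 within B (limma, unadjusted p = 0.043). Neither passed at an adjusted p under 0.05. The members' median log2 fold change of age was -0.11 within A, where 15 of 39 were above 0, and 0.27 within B, where 34 were. Over all genes these medians were -0.03 and -0.04, with 46.8% of genes above 0 within A and 45.3% within B. The median interaction term was 0.42 over the members and -0.01 over all genes, but 0.07 without old mice 5 and 7, which are 2 of the 4 old A mice.

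**Figure D5:**
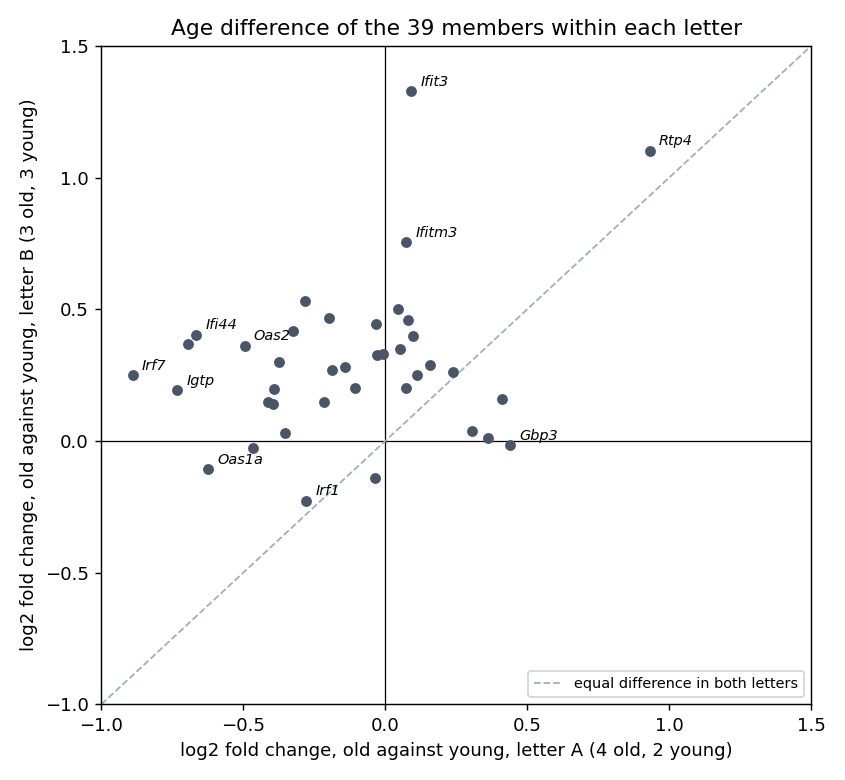
Log2 fold change of each of the 39 members, old against young, within letter A (x axis, 4 old and 2 young mice) and within letter B (y axis, 3 old and 3 young mice), with the line of equal difference dashed. *Rtp4* lies near the line at 0.93 and 1.10, and most members lie above it.

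The rest of the pathway was followed from lists of 135 further genes, of which 118 had a row and 93 were tested. None passed for age, alone or with the letter (limma), and 6 (6.45%) and 7 (7.53%) of the 93 had an unadjusted p under 0.05, against 3.95% and 5.2% of all genes. The 19 interferon genes with a row, 13 of them α-interferons or their relatives, were all below the minimum mean, with at most 44 reads in a mouse and a highest mean of 3.58 for *Ifnk*. Among the receptors, *Ifnar2*, a chain of the type I receptor, had 97.5 ± 14.1 in young and 75.6 ± 19.9 in old mice (log2 fold change with the letter -0.39 ± 0.20, limma, adjusted p = 0.996). *Il10rb*, the chain shared by the interferon-λ and interleukin-10 receptors, had 30.5 ± 5.89 and 17.7 ± 7.68 (-0.89 ± 0.31, limma, adjusted p = 0.52). *Ifnlr1*, the private chain of the interferon-λ receptor, had 16.7 ± 8.97 and 21.1 ± 10.6, and was lower in B than in A (-1.23, limma, adjusted p = 0.0039). *Ifnar1*, *Ifngr1* and *Ifngr2* were not analysed here.

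The sensors and adaptors (15 tested), feedback inhibitors (8), antigen presentation genes (13) and other interferon-induced genes (50) had median log2 fold changes with the letter of 0.05, -0.05, -0.04 and 0.03. *Phf11d*, named after its values were seen, had the smallest p of the 93, with 13.4 ± 7.37 in young and 30.8 ± 9.67 in old mice (1.30 ± 0.32, limma, adjusted p = 0.085). For the letter, 24 of the 93 passed (25.8%, against 36.1% of all genes), 20 of them higher in B (21.5%, against 10.5%). These shares are not matched for level either.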

How the data were processed

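Per the sample labels and the study's methods, LSK-SLAM cells of 5 young and 7 old mice were profiled by RNA-seq. The authors deposited normalized read counts, a signal that is a gene's reads over the product of library size and a scaling factor, times 1000000. Submitters' notes name FastQC 0.11.8, STAR 2.5.4b, edgeR 3.24.3 and build mm10, while the counting tool, its strand setting and the annotation are not given in the sources used here. A second deposited table holds the authors' own age comparison (log2 fold changes, log2 CPM, likelihood ratios, p-values and FDR) and was not used.

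Whole reads were obtained again from the step size of each mouse's values, and 100% of values came out whole within 0.001. They numbered between 0.861 and 5.12 M (M for 1000000). Every gene was fitted at log2(value + 1) with limma 3.58.1 in R 4.3.3 (lmFit, eBayes with trend) at a minimum mean of 10, with Benjamini-Hochberg adjustment over 12354 genes and a threshold of 0.05. Fold changes on this scale understate changes of low genes. The test for normalized values was kept as the main one, with edgeR 4.0.16 and DESeq2 1.42.0 on recovered reads as alternatives. The other alternatives were the pseudocount, the minimum mean, no trend, rescaling by median ratios or TMM, the letter, either letter alone, a replicate block and leaving out each mouse. Leaving out old mice 5 and 7 together was added after the data were seen. The procedure was tested on simulated data. The members and lists were chosen with earlier results of these data known. Named members are those called for age, the 4 of smallest p in each direction with the letter, *Stat2*, *Irf1* and *Irf7*, those without overlap between the ages, the 6 of smallest adjusted p for the letter and the 3 highest per length. GENCODE vM21 (GRCm38) gave positions, exon lengths and the 50-base words that genes share, with 18745 of 18762 identifiers found, and promoters from RefSeq. Groups of mice were taken from the labels. Python 3.11.15, numpy 2.4.6 and pandas 2.3.3 were used for the other steps.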

Additional observations from a re-analysis of the deposited data

Results flagged for a closer look

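Each member was examined for a mouse far from the others of its age by Dixon's ratio, in 80 groups, of which chance alone flags about 1 in 20 (4 groups). In all, 3 values stood apart, all in young mice. *Ifit3* stood at 28.4 in young mouse 2, while the rest of that age lay between 3.14 and 6.87, and without that mouse its log2 fold change for age was 1.35 in place of 0.85, still not called. *Eif2ak2* stood at 49.0 in the same mouse and between 108 and 129 elsewhere in the group. *Ifi44* stood at 92.5 in young mouse 5 and between 135 and 147 in the rest.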

How the results depend on the processing

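No member was called for age alone (0 of 39), and 1, *Rtp4*, was called with the label letter as a covariate, in DESeq2 on recovered reads, in the B mice alone, without old mice 5 and 7, and without old mouse 5, so that leaving out each mouse in turn gave 0 to 1. With the letter, 1 member was called, 0 at a pseudocount of 0.1 and 0 without the variance trend, and from 0 to 1 with each mouse left out. For the letter, 9 members were called, 5 at a minimum mean of 30, 3 without the variance trend, 18 after median ratios, 15 after TMM, 5 in edgeR, 5 in DESeq2, 3 without old mice 5 and 7, and from 3 to 13 with each mouse left out. The interaction gave 0 members throughout its 22 alternatives. The members' median log2 fold change for age, 0.07, was 0.14 with the letter, -0.11 in the A mice, 0.27 in the B mice and 0.24 without old mice 5 and 7, and ran from 0.025 (without old mouse 2) to 0.17 (without old mouse 5) with single mice left out. The spread between mice of an age was 0.29 (pooled SD of the members' median deviation). The causes were not tested.

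The log2 fold change for age alone changed sign for 7 of the 16 named members, none of them called in either sign. In the B mice alone *Igtp* was 0.19, *Irf7* 0.25, *Ddx58* 0.15 and *Gbp7* 0.20. In the A mice alone *Stat2* was -0.19, *Adar* -0.029 and *Oas2* -0.50. Without old mice 5 and 7, *Igtp* was 0.11, *Ddx58* 0.034, *Oas2* -0.036 and *Gbp7* 0.23. *Stat2* was between -0.069 and 0.11 with each mouse left out (below 0 without young mouse 4). *Adar* was between -0.11 and 0.20 with each mouse left out (below 0 without young mouse 2 or old mouse 2, 3 or 4). *Oas2* was -0.042 with the letter, -0.0139 in edgeR and -0.0141 in DESeq2, and between -0.13 and 0.39 with each mouse left out (below 0 without young mouse 3, young mouse 5 or old mouse 5). *Gbp7* was 0.056 with the letter, 0.0118 in edgeR and 0.0121 in DESeq2, and between -0.21 and 0.14 with each mouse left out (above 0 without young mouse 3, young mouse 5 or old mouse 5).

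Replicate numbers 1 to 5 are shared by the ages but mark different animals. The correlation of same-numbered mice was 0.18, 0.40 and 0.61 for numbers 1, 3 and 4, whose young and old mouse share the letter. It was -0.56 and 0.04 for numbers 2 and 5, whose letters differ. The part of the letter in these correlations was not tested. With the replicate block over these 10 mice, 0 members were called, while calls over all genes went from 8 to 19. The members' median was 0.12 with and without the block. This was fixed in advance, since each number holds 1 young and 1 old mouse.

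Depth limits the low members most, since 16 of the 40 had under 30 reads in at least 1 mouse, *Isg15* as few as 3. Intervals from 5 and 7 mice still allow differences of about 0.5 log2 units for most members.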
